A study of Mus musculus with 24 samples.

Results

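The genes described here encode 3 families of splicing factors: the SR proteins (symbols Srsf and a number), the heterogeneous nuclear ribonucleoproteins or hnRNPs (symbols that start with Hnrnp), and the subunits of the SF3a and SF3b complexes (symbols Sf3a or Sf3b and a number). Members were all protein-coding genes of the GENCODE M21 mouse annotation (build GRCm38) with such a symbol, 40 genes in all, of which 11 were SR proteins, 20 hnRNPs and 9 SF3 subunits. Reads were found for 39 of them among the 15439 gene-level features of C2C12 and for 38 among the 7557 of NSC-34. RNA was read on a Nanopore MinION from 2 mouse cell lines: C2C12, a myoblast line, labelled as wild type, and NSC-34, a hybrid line with motor neuron traits. Each line was grown on its own as the control or together with the other line for 3 days, with 6 libraries in each of the 4 groups. No library carries a further treatment or allele in its label, and each line is a single established line. The labels do not say that replicates came from separate cultures, so p-values measure the spread between these libraries, which may be technical.

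SR proteins carry RNA recognition motifs and a tail rich in arginine and serine, which kinases phosphorylate. They bind exonic enhancers and help recruit the spliceosome. The hnRNPs coat nascent RNA and often compete with SR proteins, so that splice sites near their binding sites are used less. SF3a and SF3b are parts of the U2 small nuclear ribonucleoprotein, which recognizes the branch site of an intron. Many genes of these families also make transcripts with a retained intron or with an exon that brings an early stop codon, and nonsense-mediated decay (NMD) removes many of the latter. Through such transcripts several of these proteins limit their own level.

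The alternative transcripts discussed later part from the coding ones at the junctions shown here, which are printed because they show what a read must contain to tell the paired transcripts apart at that place. All sequences are from the GENCODE M21 transcripts (GRCm38) and are written 5′ to 3′ on the strand of the gene. In the first pair, the last 30 bases of the shared exon are in lower case and what follows is in capitals. Srsf3-202, the coding transcript, goes on to the next coding exon, whereas Srsf3-201, in the NMD class, enters a cassette exon of 456 bases (chr17:29039454-29039909, plus strand) and meets a stop codon, TGA, after 34 bases of it, where the printed sequence ends.
Srsf3-202: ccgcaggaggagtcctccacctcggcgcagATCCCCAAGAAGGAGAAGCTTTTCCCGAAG
Srsf3-201: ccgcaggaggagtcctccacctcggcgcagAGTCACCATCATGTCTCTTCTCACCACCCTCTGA

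In Sf3b1, the coding transcript Sf3b1-201 joins the shared exon to the next exon, and the retained-intron transcript Sf3b1-203 reads on into an intron of 1813 bases (chr1:55014563-55016375, minus strand). Sf3b1-203 has 10 annotated exons against 25 and ends inside an exon of Sf3b1-201, so the pair also differs at the 3′ end. Reads counted on Sf3b1-203 therefore need not all hold the intron. The capitals are again the 30 bases after the shared exon, and those of Sf3b1-203 start with the GT of the unused donor site.
Sf3b1-201: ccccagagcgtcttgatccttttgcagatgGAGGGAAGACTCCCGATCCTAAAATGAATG
Sf3b1-203: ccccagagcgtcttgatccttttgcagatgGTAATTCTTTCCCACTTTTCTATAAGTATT

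Srsf5-212 is the same kind of transcript for Srsf5. It keeps an intron of 1229 bases (chr12:80947866-80949094, plus strand) that Srsf5-201 removes, and its capitals also start with GT.
Srsf5-201: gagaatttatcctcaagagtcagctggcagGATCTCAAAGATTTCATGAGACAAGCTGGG
Srsf5-212: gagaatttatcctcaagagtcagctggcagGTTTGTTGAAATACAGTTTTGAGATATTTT

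**Figure D1:**
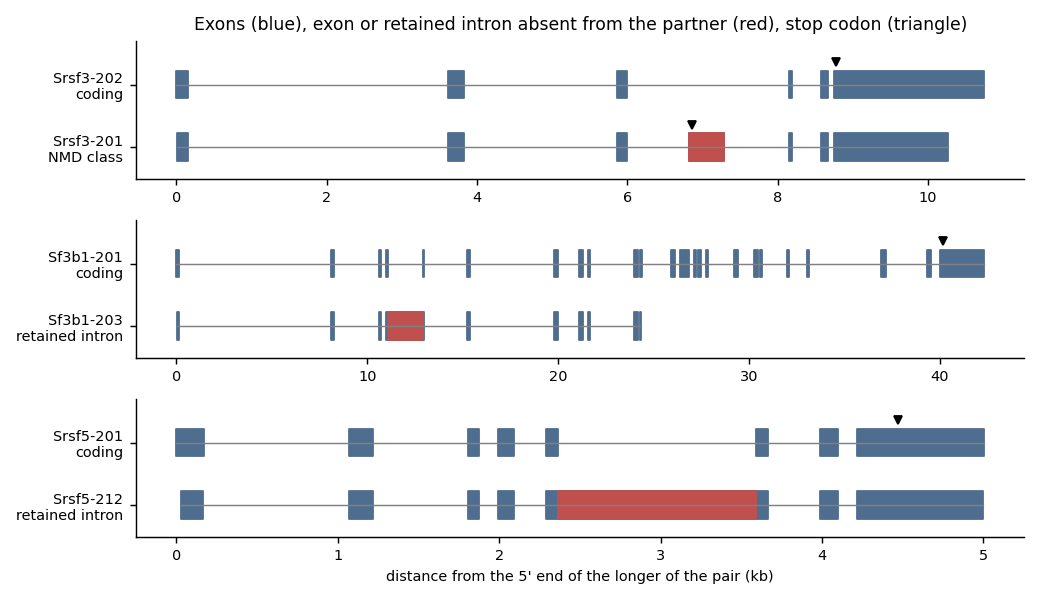
Exon maps of 3 pairs of transcripts, with the distance from the 5′ end in kb on the horizontal axis and exons as blocks. Red marks an exon or a retained intron that the other transcript of the pair lacks: the cassette exon of 456 bases in Srsf3-201, the retained intron of 1813 bases in Sf3b1-203 and that of 1229 bases in Srsf5-212. Triangles are annotated stop codons.

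Total counts were 121154 to 658075 reads per C2C12 library but only 88 to 30314 per NSC-34 library. The splicing factors drew 13721 reads in C2C12 and 444 in NSC-34. Muscle markers checked the label of C2C12: all 14 had reads, and together they took 2.33 to 2.81% of the reads in controls and 2.82 to 3.11% after co-culture, ranges that do not overlap. Neuron and motor neuron markers took 0.0189 to 0.0264% and 0.0187 to 0.0223% of C2C12 reads in the same order, with Chat, Slc18a3, Slc5a7, Isl1, Mnx1 and Elavl3 at 0 in both groups. In NSC-34 the neuronal list took up to 0.365% of reads in controls and up to 0.298% after co-culture, with Slc18a3, Slc5a7, Mnx1, Stmn2, Nefm, Map2 and Dcx at 0 in both groups, Chat and Nefl at 0 in controls and Elavl4 at 0 after co-culture, while 11 of the 14 muscle markers were at 0 in each group. The part of the higher muscle share in the results on C2C12 was not tested. Fewer cells of a type and less RNA per cell cannot be told apart in such bulk samples.

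Levels are given in CPM, the field's normalised read count: the reads of a gene relative to those on all tested genes of the library, scaled by the trimmed mean of M-values (TMM), and changes as log2 of co-culture over control. Of 2570 C2C12 genes that passed the filter on low counts, edgeR's quasi-likelihood test called 0.623% lower and 0.817% higher after co-culture (Benjamini-Hochberg adjusted p under 0.05). Among the splicing factors 23 passed the filter: 2 were called lower, the SR protein gene Srsf3 and the SF3b subunit gene Sf3b2, and 0 higher. DESeq2 and limma-voom likewise called 0 members higher. At an unadjusted p under 0.05, 8 members were lower and 0 higher, against 227 lower and 151 higher among all 2570 genes. A further 16 members had reads but did not pass the filter, and Srsf12 had 0 reads in both lines. The log2 change was below 0 for 19 of the 23, or 82.6%, with a median of −0.26, whereas over all tested genes 49.5% were below 0 and the median was 0.00. By family, 12 of 13 hnRNPs were below 0 (median −0.26), 4 of 6 SR proteins (median −0.26) and 3 of 4 SF3 subunits (median −0.39). The same 19 to 4 split was found with RLE factors and with library totals as the scaling. With library totals the calls among all genes moved from 21 higher and 16 lower to 23 higher and 35 lower.

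The members were longer than tested genes in general, with a median length of 2471 against 1949 bases. With the trend of the counts on transcript length taken out of each library, 18 of 23 members were below 0, with a median of −0.24, against 50.6% of all genes. In that fit Srsf3 kept its call (adjusted p = 0.0332), and Sf3b2 did not (adjusted p = 0.0522), with a log2 change of −0.67 against −0.73 before. As a share of all reads, the 40 genes took 0.388 to 0.507% in the 6 control libraries (mean 0.451 ± 0.0481%, SD, n = 6) and 0.339 to 0.388% in the 6 co-culture libraries (mean 0.373 ± 0.0179%, SD, n = 6). The highest co-culture library, number 4, lay just under the lowest control library, number 6. The hnRNPs took 0.234 to 0.304% in controls and 0.199 to 0.248% after co-culture, so these ranges overlapped. SR proteins took 0.0768 to 0.0954% and 0.0664 to 0.0797%, and SF3 subunits 0.0702 to 0.107% and 0.0604 to 0.0859%.

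**Figure D2:**
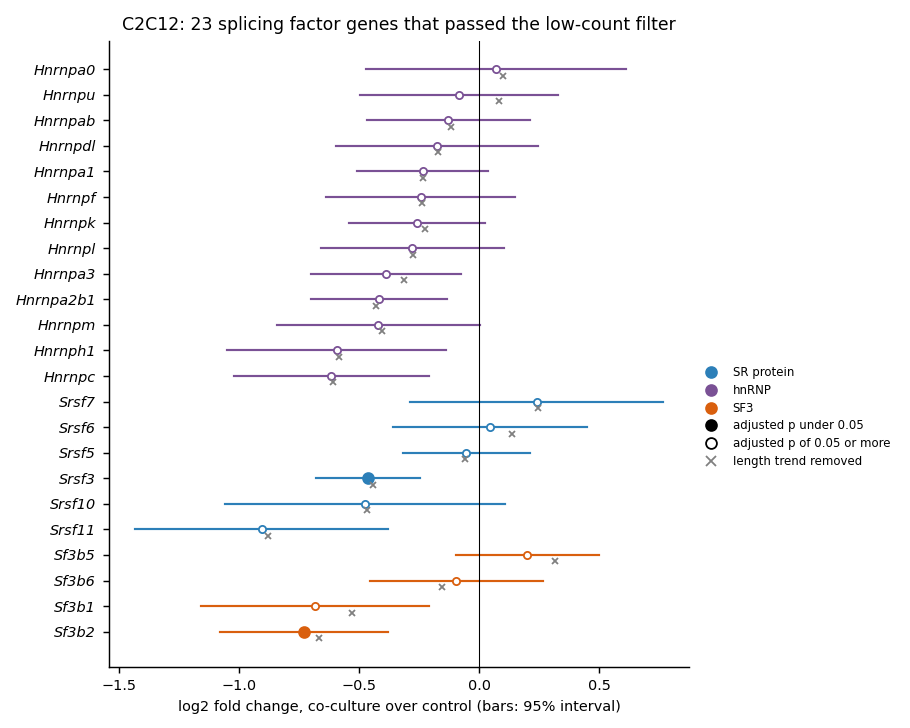
log2 fold change of co-culture over control (horizontal axis) for the 23 splicing factor genes that passed the filter in C2C12, with 95% intervals as bars. Filled points are Srsf3 and Sf3b2, whose adjusted p was under 0.05, and crosses are the values with the length trend removed. Of the 23 points, 19 lie below 0.

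Among the SR proteins, Srsf3 was the only member called lower in the edgeR fit. Srsf3 encodes the smallest SR protein, which also takes part in mRNA export. Its level was 295, 328 and 366 CPM (lowest, median and highest) in the 6 control libraries and 215, 245 and 246 CPM after co-culture. All 6 co-culture libraries lay below all 6 controls. Such a separation downward was found for 0.506% of the tested genes and for 1 member, and one upward for 1.01% and 0 members. Srsf3 had a log2 change of −0.46 (SE 0.10, 95% interval −0.68 to −0.24, adjusted p = 0.0335, edgeR). The call stood close to its threshold. Leaving out control library 1, 2, 3 or 4, or co-culture library 1, 2, 3 or 5, ended it, with an adjusted p (edgeR) of 0.0502 to 0.0958. Over the 12 fits with 1 library left out the log2 change was −0.50 to −0.43. DESeq2 gave Srsf3 an adjusted p of 0.0526, and edgeR with no filter on low counts −0.37 (adjusted p = 0.396). Leaving out the 2 shallowest controls, numbers 1 and 4, an alternative chosen after the data were seen, gave −0.42 (adjusted p = 0.103, edgeR).

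Srsf11 had the lowest log2 change of the 23 members, but it missed the threshold. It encodes an SR-related protein with an arginine and serine rich domain. Its control libraries held 51.8, 68.8 and 85.0 CPM, and the co-culture libraries 23.8, 31.1 and 67.6 CPM. The value of 67.6 came from co-culture library 6. The other co-culture libraries, at 23.8 to 35.3 CPM, lay below every control. Srsf11 had a log2 change of −0.91 (SE 0.25, adjusted p = 0.0640, edgeR), and without co-culture library 6 it was −1.14 (adjusted p = 0.0215). The other 11 fits with 1 library left out did not call Srsf11 (adjusted p 0.0541 to 0.165, edgeR).

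The 4 other SR proteins that passed the filter did not pass the test. Srsf5, an SR protein that binds exonic enhancers, stood at 164, 230 and 255 CPM in controls and 186, 223 and 233 CPM after co-culture. Its log2 change was −0.05, with a 95% interval of −0.32 to 0.21. Srsf6, a close relative of Srsf5, stood at 74.0, 126 and 170 CPM and then at 109, 121 and 165 CPM. The log2 change of Srsf6 was 0.05 (95% interval −0.36 to 0.45), and it turned negative without control library 2, 4 or 6 or without co-culture library 5 (lowest value −0.057). Srsf10, a repressor of splicing in its dephosphorylated form, had a log2 change of −0.48 (adjusted p = 0.480, edgeR). Srsf7, which like Srsf3 acts in export and carries a zinc knuckle, had one of 0.24 (adjusted p = 0.764, edgeR). The groups overlapped for all 4. Srsf1, Srsf2, Srsf4 and Srsf9 had 126, 58, 21 and 68 reads over the 12 libraries and did not pass the filter.

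**Figure D3:**
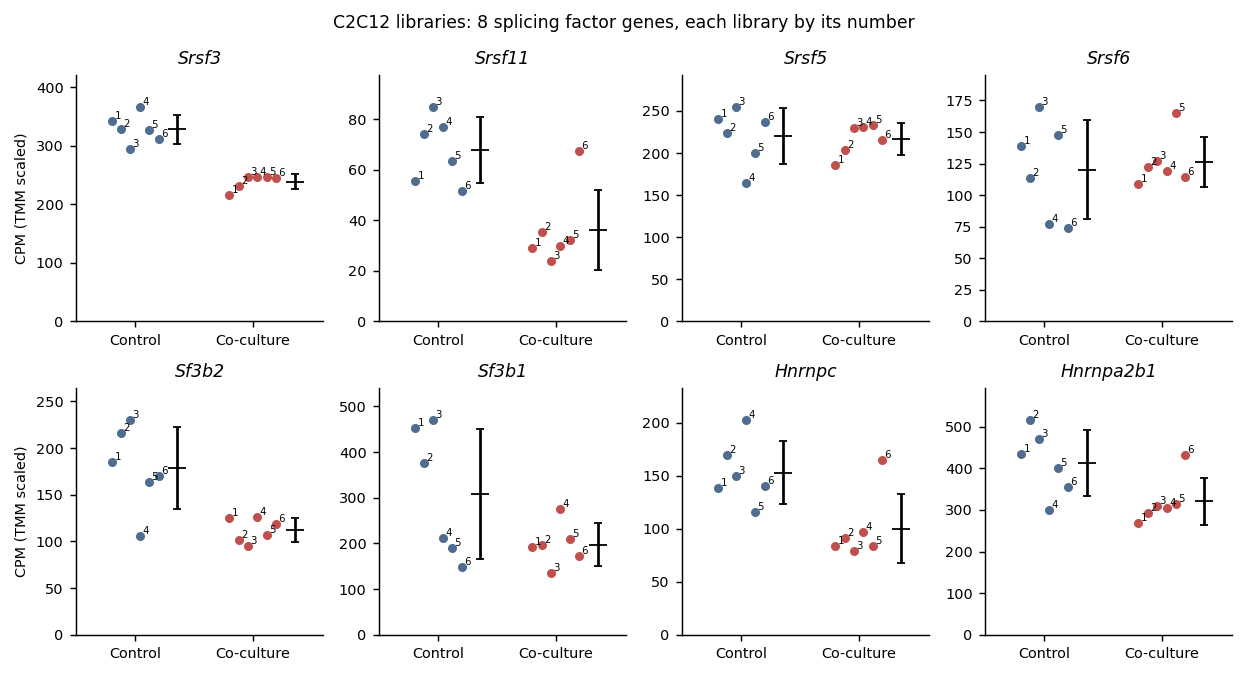
TMM-scaled CPM of 8 splicing factor genes in each C2C12 library, control in blue and co-culture in red. Numbers at the points are the replicate numbers, and the black bar is the mean ± SD (n = 6). Srsf3 is the only one of the 8 whose groups do not overlap, and in Srsf11, Hnrnpc and Hnrnpa2b1 co-culture library 6 is the highest of its group.

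Of the SF3 subunits, only Sf3b2 was called lower in the edgeR fit. Sf3b2 encodes the SF3b subunit that helps anchor the U2 particle near the branch site. It stood at 106, 178 and 230 CPM in controls and at 95.2, 113 and 127 CPM after co-culture. The groups overlapped through control library 4, at 106 CPM, and the other 5 controls, from 164 CPM upward, lay above every co-culture library. Sf3b2 had a log2 change of −0.73 (SE 0.17, 95% interval −1.08 to −0.38, adjusted p = 0.0347, edgeR). Leaving out control library 1, 2 or 3, or co-culture library 2, 3 or 5, ended the call, with an adjusted p (edgeR) of 0.0570 to 0.104, and the log2 change stayed between −0.81 and −0.65 with any 1 library left out. With no filter on low counts the adjusted p was 0.0745.

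Sf3b1, the largest SF3b subunit, which holds the branch site helix, did not pass the test but varied widely among controls. Control libraries 1, 2 and 3 held 453, 376 and 470 CPM, and libraries 4, 5 and 6 held 212, 190 and 148 CPM. The co-culture libraries ranged from 135 to 276 CPM, with a median of 195, and overlapped the lower controls. For Sf3b1 the log2 change was −0.68 (SE 0.23, adjusted p = 0.129, edgeR). Without control library 6 it was −0.81 (adjusted p = 0.0398), and with no filter on low counts it was −0.59 (adjusted p = 0.0230). The other 11 fits with 1 library left out did not call Sf3b1 (adjusted p 0.0547 to 0.363, edgeR). With the length trend removed its log2 change was −0.53 (adjusted p = 0.257, edgeR). Sf3b5, a small subunit, stood at 167, 190 and 251 CPM in controls and at 169, 253 and 266 CPM after co-culture, with a log2 change of 0.20 (adjusted p = 0.582, edgeR). Sf3b6, which lies close to the branch point adenosine, had a log2 change of −0.09 (adjusted p = 0.890, edgeR), and −0.20 to −0.02 with 1 library left out. Both pairs of groups overlapped. Sf3a1, Sf3a2, Sf3a3, Sf3b3 and Sf3b4 did not pass the filter, with 38 to 128 reads each.

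None of the 13 hnRNP genes that passed the filter passed the test in the edgeR fit. Hnrnpc, whose protein forms tetramers on uridine tracts, stood at 116, 145 and 202 CPM in controls and at 79.3, 87.8 and 165 CPM after co-culture. As for Srsf11, the highest co-culture value was that of library 6, and the other co-culture libraries lay below every control. The log2 change of Hnrnpc was −0.61 (SE 0.20, adjusted p = 0.108, edgeR), and without co-culture library 6 it was −0.81 (adjusted p = 0.0231). Hnrnpa2b1, an RNA-binding protein of the A/B group, stood at 299, 418 and 516 CPM and then at 270, 307 and 431 CPM, again with library 6 highest. Its log2 change was −0.42 (SE 0.14, adjusted p = 0.119, edgeR), and −0.52 without that library (adjusted p = 0.0497). The other 11 fits with 1 library left out called neither Hnrnpc nor Hnrnpa2b1. Their adjusted p there was 0.075 to 0.248 and 0.0692 to 0.315 (edgeR). With co-culture library 6 left out, 40 of 2641 genes were called in either direction, and 5 of 24 members were called lower: Srsf3, Sf3b2, Srsf11, Hnrnpc and Hnrnpa2b1.

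The other hnRNPs followed with smaller or less certain values. Hnrnpa3, which had the most reads of all members (1528), stood at 400, 615 and 962 CPM in controls and at 428, 457 and 531 CPM after co-culture. The log2 change of Hnrnpa3 was −0.39 (SE 0.15, adjusted p = 0.213, edgeR), and the co-culture range lay inside that of the controls. Without control library 1 it was −0.24, and without the 2 shallowest controls −0.20. Hnrnpa3 is uncertain because the pseudogene Gm5641 is identical to it over 1488 bases and drew 187 reads, so reads of the pair cannot be told apart there. Summed with Gm5641, the level was 607 ± 174 CPM of all reads in controls and 459 ± 32.2 after co-culture (SD, n = 6), against 541 ± 169 and 411 ± 33.8 for Hnrnpa3 alone. Hnrnpk, a protein with KH domains that binds cytidine tracts, stood at 311, 385 and 533 CPM and then at 257, 356 and 380 CPM (log2 change −0.26, adjusted p = 0.398, edgeR), with −0.16 without control library 5. Hnrnph1, which binds runs of guanosine, had a log2 change of −0.59 (adjusted p = 0.187, edgeR). The remaining 8, Hnrnpm, Hnrnpl, Hnrnpf, Hnrnpa1, Hnrnpdl, Hnrnpab, Hnrnpu and Hnrnpa0, ranged from −0.42 for Hnrnpm to 0.07 for Hnrnpa0. Stretches of at least 500 bases at 90% identity or more with another gene were found for 18 of the 40 members. For Hnrnpab, Hnrnpm, Hnrnpu and Srsf4 the only such gene (Phykpl, March2, Cox20 and Gm12992) is one that overlaps the member at its own locus. Several members overlap genes in this way. Cox20 (691 reads) overlaps Hnrnpu, Rmi1 (129 reads) Hnrnpk and Phykpl (47 reads) Hnrnpab, each on the opposite strand, and March2 (54 reads) overlaps Hnrnpm on the same strand. Whether the counting used strand is not given in the sources used here, so these members are uncertain too.

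At the level of single transcripts, 24 member transcripts of 2586 tested passed the filter. The edgeR test called 0.0773% of all transcripts lower and 0.309% higher, and of the members 1 lower, Srsf3-202, and 0 higher. DESeq2 called 2 members lower, Srsf3-202 and Sf3b2-201, and 0 higher. At an unadjusted p under 0.05, 6 member transcripts were lower and 0 higher, against 161 and 121 of all 2586. Srsf3-202, the coding transcript printed above, held 88.8% of the reads of its gene. Its level was 278 to 343 CPM in controls (mean 315 ± 24.6, SD, n = 6) and 194 to 243 CPM after co-culture (mean 217 ± 19.6, SD, n = 6). The groups did not overlap. Srsf3-202 had a log2 change of −0.54 (SE 0.11, 95% interval −0.77 to −0.32, adjusted p = 0.0335, edgeR). In the 12 fits with 1 library left out, the call remained only without co-culture library 6 (adjusted p = 0.0364), and elsewhere the adjusted p was 0.0527 to 0.142. Srsf3-201, with the cassette exon and the early stop, drew 18 reads in controls and 20 after co-culture, against 398 and 324 on Srsf3-202. The difference in this split was not tested.

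Hnrnpa2b1-202, a coding transcript of that hnRNP gene, was the other member transcript whose groups did not overlap, among the 0.735% of transcripts so separated downward; 0.657% and 0 members were separated upward. Its level was 77.6 to 186 CPM in controls and 34.6 to 66.4 CPM after co-culture, with control library 1 at 186 and the other controls at 94.1 or less. Its log2 change was −1.16 (SE 0.27, adjusted p = 0.0846, edgeR), so it did not pass the test. Without co-culture library 6 it was −1.31 (adjusted p = 0.0489). It was named after its values were seen. The other coding transcripts of the gene that passed the filter did not pass the test. Hnrnpa2b1-203 stood at 148 ± 62.7 CPM in controls and 161 ± 15.7 CPM after co-culture (SD, n = 6), with a log2 change of 0.02. Hnrnpa2b1-201 had a log2 change of −0.78 (adjusted p = 0.282, edgeR).

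**Figure D4:**
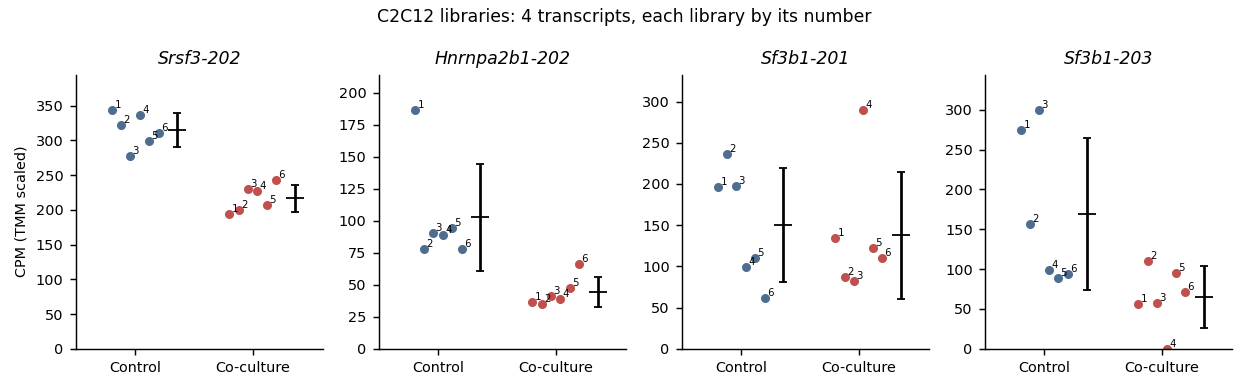
TMM-scaled CPM of 4 transcripts in each C2C12 library, control in blue and co-culture in red, with replicate numbers at the points and the mean ± SD (n = 6) as a black bar. The groups do not overlap for Srsf3-202 and Hnrnpa2b1-202. In co-culture library 4, Sf3b1-203 stands at 0 and Sf3b1-201 at 289 CPM, the highest of the 12.

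In C2C12, retained-intron and NMD transcripts were a larger part of the splicing factor reads than of reads on protein-coding genes in general. The 205 member transcripts with reads in C2C12 were 111 coding (12030 reads, 87.7%), 50 retained-intron (895 reads, 6.52%), 23 NMD (593 reads, 4.32%) and 21 processed transcripts (203 reads). By library, the retained-intron and NMD share of member reads was 10.5 to 15.3% in controls (mean 12.4 ± 1.99%, SD, n = 6) and 8.35 to 11.2% after co-culture (mean 9.47 ± 1.06%). Over all protein-coding genes the same share was 5.46 to 6.79% and 5.02 to 6.003%. Every C2C12 library thus had a higher share on the splicing factors than on all coding genes, and the control and co-culture ranges overlapped. Sf3b1 alone held 345 of these reads. Without it the member share was 8.23 to 12.3% in controls and 7.35 to 8.99% after co-culture.

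The share differed from gene to gene. It was 64.0% in Sf3b3 (48 of 75 reads, 95% exact interval 52.1 to 74.8%), which encodes a large scaffold subunit of SF3b. It was 45.2% in Sf3b1 (345 of 764 reads, 41.6 to 48.8%) and 45.1% in Hnrnpdl (97 of 215 reads, 38.3 to 52.0%), a relative of Hnrnpd. It was 33.5% in Hnrnpl, whose protein binds CA repeats, and 37.9% in Srsf2, an SR protein that binds exonic enhancers. Hnrnpa1, which often opposes SR proteins at splice sites, had 23.05% (224 of 972 reads), all of the NMD class. Srsf5 had 17.2% and Srsf3 10.8%. For Sf3b5 and Hnrnpa0, whose transcripts with reads have a single exon, the structure leaves no intron to retain. The genes Cog4 (42 reads) and Mettl23 (134 reads) and Mfsd11 (84 reads) overlap Sf3b3 and Srsf2 on the opposite strand, so the shares of those members are uncertain. Intervals cover counting error only, and how the authors split reads between transcripts of a gene is not given in the sources used here.

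**Figure D5:**
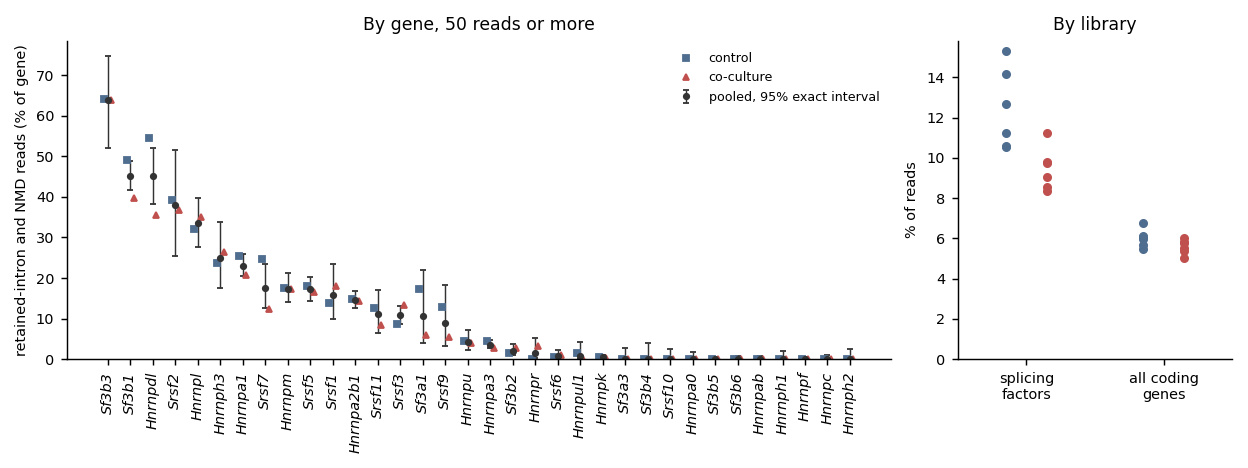
Left, share of the reads of each gene that lay on retained-intron or NMD transcripts in C2C12 (%), for members with 50 reads or more, pooled with 95% exact intervals (black) and by group (blue squares control, red triangles co-culture). Right, the same share in each library for the splicing factors (8.35 to 15.3%) and for all coding genes (5.02 to 6.79%).

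The annotation puts unlike structures into these classes. Of the 50 retained-intron transcripts, 19 hold a whole intron of a coding transcript of the gene, and they drew 638 of the 895 reads. All 23 NMD transcripts have an exon junction more than 50 bases past the stop codon. For 9 of them, with 479 of the 593 reads, the stop codon is also that of a coding transcript, so the stop itself does not set them apart. Hnrnpa1-203 (139 reads), Hnrnpa2b1-209 (123 reads) and Hnrnpdl-201 (90 reads) are of this kind, with the last junction 90, 157 and 126 bases past the stop. Hnrnpa2b1-202 also has its last junction 157 bases past the stop, yet it is classed as coding, the only one of the 111 coding transcripts with a junction so far on. Srsf3-201 (38 reads) has its own early stop, 548 bases before the last junction.

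Sf3b1-203 was the retained-intron transcript with the most reads, 330, or 43.2% of its gene. The 6 control libraries had 28, 89, 56, 10, 16 and 12 reads on it in order of replicate number, and the co-culture libraries 17, 51, 7, 0, 28 and 16. On the scaled level this was 88.5, 128 and 299 CPM in controls (lowest, median and highest) and 0, 64.3 and 110 CPM after co-culture. Sf3b1-203 had a log2 change of −1.24 (SE 0.43, adjusted p = 0.255, edgeR), with overlapping groups. With no filter on low counts it was −1.14 (adjusted p = 0.0145). The coding Sf3b1-201 had a log2 change of −0.24 (adjusted p = 0.922, edgeR). In co-culture library 4, where Sf3b1-203 had 0 reads, Sf3b1-201 had 37 and stood at 289 CPM, its highest value. A count of 0 there allows up to 3 reads. Of the reads assigned to Sf3b1 transcripts annotated across the intron, transcripts that keep it held 47.6% in controls and 38.5% after co-culture. The transcripts without it had 232 and 190 reads. Counts per transcript do not show whether a read covered the intron.

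The test of transcript class within a gene, which asks whether retained-intron and NMD reads change against coding reads, had 171 classes of all genes, and called 0% of them. Only Sf3b1 and Hnrnpa1 among the members had enough reads in both classes. The retained-intron and NMD class of Sf3b1 had a log2 change of −0.57 relative to its gene (adjusted p = 0.9999, edgeR), and that of Hnrnpa1 −0.43 (adjusted p = 0.9999, edgeR). With 1 library left out, the value of Sf3b1 was −0.82 to −0.29, nearest 0 without co-culture library 4, and that of Hnrnpa1 −0.55 to −0.26, nearest 0 without control library 4. At an unadjusted p under 0.05, 0 member classes were called, against 3 lower and 0 higher of all 171. Hnrnpa1-203 stood at 67.6 ± 25.1 CPM in controls and 49.9 ± 22.4 CPM after co-culture (SD, n = 6, log2 change −0.43, adjusted p = 0.750, edgeR), with −0.27 without control library 4. Hnrnpa2b1-209 and Srsf5-212 did not pass the filter. Hnrnpa2b1-209 stood at 44.1 ± 15.1 and 26.4 ± 15.3 CPM of all reads, and Srsf5-212 at 31.2 ± 28.7 and 29.9 ± 18.4 (SD, n = 6).

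Other genes of splicing and of NMD were read from 5 further lists with 112 genes, of which 65 passed the filter. In the edgeR fit, 0 of the 65 passed the test, against 0.623% lower and 0.817% higher among all 2570 genes. At an unadjusted p under 0.05, 8 of the 65 were lower and 0 higher, against 227 and 151 of all 2570. DESeq2 and limma-voom also called 0. Of the 65, 35 were below 0, with a median of −0.06, against 49.5% and a median of 0.00 over all tested genes. The list of SR-related proteins and SR kinases had 8 of 13 below 0 (median −0.19). Its smallest p was that of Acin1, which associates with the exon junction complex, at 103 ± 38.8 CPM in controls and 58.4 ± 10.1 CPM after co-culture (log2 change −0.90, adjusted p = 0.0524, edgeR). The list of other RNA-binding regulators had 13 of 17 below 0 (median −0.21), with Rbm39 at −0.39 (adjusted p = 0.2204) and Tardbp at −0.53 (adjusted p = 0.262). The core proteins of the small nuclear ribonucleoproteins had 9 of 21 below 0 (median 0.02), with the tri-snRNP protein gene Prpf6 at −0.92 (adjusted p = 0.127). The list of branch site factors and spliceosomal helicases had 1 of 7 below 0, Ddx23 at −0.54 (adjusted p = 0.324). Genes of NMD and the exon junction complex had 4 of 7 below 0, with Upf2, which bridges the decay factors to the exon junction complex, at −0.54 (adjusted p = 0.127) and Upf1, the decay helicase, at 0.56 (adjusted p = 0.505).

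In NSC-34 the depth allowed little. The edgeR fit of co-culture against control tested 49 genes and called 0% in either direction, and 0 members passed its filter. With a filter of at least 10 reads in all, an alternative, 17 members were tested and 0 called, against 7 called of all 1109 genes. At an unadjusted p under 0.05, 1 member was higher and 0 lower, against 82 and 14 of all genes. Control library 1, with 88 reads, had 0 member reads. Over pooled libraries the members took 0.542% of control reads (86 of 15858, 95% exact interval 0.434 to 0.669%) and 0.651% of co-culture reads (358 of 55007, 0.585 to 0.722%). These intervals and those below cover counting error only, not the spread between libraries. By library the share was 0 to 0.627% in controls and 0.398 to 0.919% after co-culture. Co-culture library 2 held 213 of the 358 member reads and 30314 of the 55007 reads. Of the pooled member reads, retained-intron and NMD transcripts held 14.0% in controls (12 of 86) and 7.82% after co-culture (28 of 358). Over all protein-coding genes their share was 4.82 to 14.1% and 6.22 to 13.1% by library. The member share lay above it in some NSC-34 libraries and below it in others. Each library held 0 to 4 such member reads in controls and 0 to 15 after co-culture, so these member shares are uncertain. In control library 6, for example, it was 2 of 2 reads. Hnrnpa1 had the most reads, 51, at 883 CPM of all control reads (95% exact interval 483 to 1481) and 673 CPM after co-culture (474 to 927). Sf3b5 had 40 reads, at 378 and 618 CPM. Hnrnpa3 had 36, at 441 and 527 CPM, and Srsf3 had 29, at 378 and 418 CPM. The intervals of the 2 groups overlapped for each of these. Hnrnpab, with 27 reads, stood at 126 CPM (15.3 to 456) and 454 CPM (294 to 671), and it was the member higher at an unadjusted p under 0.05 in the alternative (adjusted p = 0.476, edgeR). For Srsf6, 15 of its 16 reads were in co-culture library 2.

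The lines were compared within each condition on the counts of both tables, with NSC-34 over C2C12. In controls 818 genes passed the filter, and edgeR called 3.55% higher and 30.2% lower in NSC-34. Of 9 members 0 were called, and 1 was higher and 0 lower at an unadjusted p under 0.05, against 38 and 308 of all 818. The groups were separated upward for 0.367% of genes and downward for 28.4%, and for 0 members. NSC-34 control library 1, with 88 reads, had 0 member reads, so no member could be separated upward. The filter asked for a minimum level in 6 libraries, so every member also needed C2C12 libraries to pass it. Genes high in C2C12 thus passed more easily, and how far this moved the shares called higher and lower was not tested. The member at the unadjusted threshold was Hnrnpa1, at 615 ± 136 CPM in C2C12 and 996 ± 981 CPM in NSC-34 (SD, n = 6), with a log2 difference of 1.09 (adjusted p = 0.0707, edgeR). DESeq2 called it higher (1.28, adjusted p = 0.0159), as did edgeR with RLE factors (1.28, adjusted p = 0.0353). The difference was smaller with a filter on a mean count of 10 (0.62, adjusted p = 0.271) and with 1 NSC-34 library left out (0.26 without control library 2 to 0.80, called in 0 of 6 fits). Sf3b1 had a log2 difference of −2.50 (SE 1.37, adjusted p = 0.167, edgeR), with NSC-34 reads in control library 2 alone, so that no fold can be given without that library. DESeq2 gave −1.36. Srsf5 and Hnrnpa3 had differences of −1.01 and −0.64, and Sf3b5 and Sf3b6 0.67 and 0.67, with an adjusted p of 0.396 to 0.502 (edgeR). Sf3b6 turned to −0.67 without NSC-34 control library 2 and Sf3b5 to −0.32 without library 5. Srsf5 went to −2.02 without library 2, to −1.998 without library 5 and to −0.44 with DESeq2. Without library 3, Hnrnpa3 went to −1.50. The median over all genes was −0.77 with 29 genes called higher and 247 lower, −0.58 with RLE factors (38 and 209) and −0.24 with library totals (74 and 151).

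After co-culture 1113 genes passed the filter in the comparison of lines, and edgeR called 17.3% higher and 31.4% lower in NSC-34. Of 12 members 4 were called higher and 0 lower, and DESeq2 called 3 higher and 0 lower. Only Hnrnpab had reads in all 6 NSC-34 libraries, so the other members needed C2C12 libraries to pass the filter. Hnrnpab, an hnRNP that also binds DNA, stood at 142, 184 and 220 CPM in C2C12 and at 277, 546 and 878 CPM in NSC-34. It was the 1 member whose NSC-34 libraries all lay above all C2C12 libraries, as 5.84% of the tested genes did; 24.8% and 0 members lay wholly below. Its log2 difference was 1.696 (SE 0.33, adjusted p = 8.64e-05, edgeR). Sf3b5 stood at 300 ± 47.4 and 696 ± 425 CPM (SD, n = 6), a difference of 1.43 (adjusted p = 0.000413, edgeR). Hnrnpa1 stood at 388 ± 49.0 and 555 ± 434 CPM, a difference of 1.153 (adjusted p = 0.00276, edgeR). Srsf3, named because it was called, had a difference of 0.88 (adjusted p = 0.0341, edgeR), which RLE factors, DESeq2 and the filter on a mean count of 10 did not call. It was called in 0 of the fits with 1 library left out, though those without a C2C12 library tested only 3 members. Hnrnpa2b1 and Hnrnpk had differences of −0.49 and −0.43 (adjusted p = 0.366 and 0.382, edgeR). These comparisons rested on NSC-34 co-culture library 2, with 30314 of the 55007 reads. Without it Hnrnpab kept a difference of 1.13 (adjusted p = 0.0460, edgeR), Sf3b5 had 0.56 (adjusted p = 0.331), Hnrnpa1 turned to −0.34 (adjusted p = 0.605), and Hnrnpa2b1 was called lower at −1.97 (adjusted p = 0.0182). Without NSC-34 co-culture library 4, Sf3b5 had 0.95 and Hnrnpa1 0.77, and Hnrnpk −0.94, with an adjusted p of 0.0163, 0.0305 and 0.0508. The median over all genes was −0.23, and −0.46 with RLE factors, under which 146 genes were called higher and 435 lower in place of 193 and 350. With library totals it was 0.00, with 249 and 292. Line and depth cannot be told apart here, since every NSC-34 library was shallower than every C2C12 library.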

How the data were processed

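Counts of Nanopore MinION reads per transcript were deposited by the authors as a table for each cell line, as raw counts; the build is GRCm38 per the submitters' processing notes, and the aligner, the counter and the annotation release were each not given in the sources used here. Transcript versions were stripped and 37415 of 37677 C2C12 and 10374 of 10427 NSC-34 transcripts were matched to GENCODE M21; the others were kept as features of their own (0.224% and 0.239% of reads). Genes are sums over transcripts. There were 0 columns of no sample.

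Tests used edgeR 4.0.16 (filterByExpr, TMM, glmQLFTest) in R 4.3.3, with Benjamini-Hochberg adjustment over all tested features, and diffSpliceDGE for transcript classes. Alternatives were DESeq2 1.42.0, limma 3.58.1 with quality weights, RLE factors or library totals, other filters, loess offsets for length (span 0.5), the replicate number as a block, and each library left out. Similar sequences were found with BLAST 2.17.0. The scripts were tested on simulated data. Intervals are 95% Clopper-Pearson and floors are 3 counts. The members and lists were chosen with earlier results of these data known. Named genes were those past the threshold, and in each family the 3 with the most CPM of all reads and the 2 smallest p, the 4 retained-intron or NMD transcripts with the most reads, the tested classes, up to 3 members with the smallest p in each direction between lines, 5 in NSC-34 by reads, and up to 3 per further list.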

Additional observations from a re-analysis of the deposited data

Results flagged for a closer look

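In 36 groups of 6 libraries, the highest or the lowest value was set against the spread of the rest, and in 5 of them it stood apart. Chance gives about 1 in 20 for independent groups. These groups share libraries, and 3 of the 5 came from the same library, so the 5 cannot be read as an excess. All 5 were co-culture groups of C2C12. Srsf11 had 67.6 CPM in co-culture library 6, with 35.3 CPM next. Hnrnpc had 165 CPM in the same library, with 96.8 CPM next. Hnrnpa2b1 had 431 CPM there, with 314 CPM next. Hnrnpk had its lowest value, 257 CPM, in co-culture library 1, with 337 CPM next. Srsf6 had 165.0 CPM in co-culture library 5, with 127 CPM next. In the C2C12 gene fits of co-culture against control, each of the 3 genes that were high in library 6 was called lower only without that library.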

How the results depend on the processing

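Of the 23 C2C12 members tested, 2 were called lower; the count was 1 with DESeq2, 1 with the length trend removed, 1 with no filter (Sf3b1), 1 without the 2 shallowest controls (chosen after the data were seen), and 0 to 5 with each library left out. For transcripts the count of 1 became 2 with DESeq2, 2 with no filter (Sf3b1-203 and Hnrnph2-205), 0 without the 2 shallowest controls, and 0 to 2 with each library left out. With no filter Srsf5 turned to a log2 change of 0.034. Srsf6 turned to −0.00026, −0.015 and −0.041 without control 2, 4 and 6, and to −0.057 without co-culture 5, in a range up to 0.16 with each library left out. Between lines in controls, RLE factors and DESeq2 gave 1 member higher, leaving out libraries under 1000 reads gave 1 lower (Sf3b2), and leaving out each NSC-34 library gave 0 to 1 lower. Sf3b2 had 1 read in the NSC-34 controls, in library 6, so the fits that called it held 0 NSC-34 reads of it. In the 6 fits with 1 NSC-34 library left out, Sf3b6 ranged from −0.67 to 0.66 and Sf3b5 from −0.32 to 0.39. After co-culture the 4 higher became 1, with 2 lower (Hnrnpa2b1 and Srsf6) and Hnrnpa1 at −0.34, without the deepest NSC-34 library. All 15 NSC-34 co-culture reads of Srsf6 were in that library, so its call rested on 0 NSC-34 reads. Leaving out each library gave 1 to 4 higher and 0 to 2 lower, with Hnrnpa1 from −0.34 to 1.30. Without any 1 C2C12 library, 0 members passed the filter in controls and 3 after co-culture. The causes were not tested beyond the numbers of genes and libraries left.

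No pairing of libraries by replicate number was seen: in C2C12 the deviations of same-numbered libraries correlated at −0.05 to 0.10, and 1 of 6 correlated best with its own number. The labels do not say whether a number marks a shared plate, and correlations this low do not exclude it. With the replicate block, 0 C2C12 genes and 0 C2C12 transcripts of the members were called (Srsf3 at an adjusted p of 0.0602 and Sf3b2 at 0.0665, edgeR), and 3 members stayed higher between lines after co-culture. Depth limits all values in NSC-34.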
